A study of Mus musculus with 4 samples.

Results

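Matricellular proteins are secreted into the extracellular matrix, where they change how cells adhere, migrate and respond to growth factors. The 7 genes described here were Sparc, Thbs1, Tnc, Postn, Cyr61 (now Ccn1), Ctgf (now Ccn2) and Fn1. Fn1, which encodes fibronectin, is a structural matrix protein that several of the others bind. They are 7 of 18193 genes with a probe set of their own, and were found by platform symbol, which gave 15 of 45037 non-control probe sets. A further probe set that lists Thbs1 together with another gene was left out. The 7 genes were chosen from a theme led by Sparc, whose log2 values differed widely between the lines in an earlier reading of these arrays. Their differences between the lines are therefore a description and support nothing.

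The values came from 4 Affymetrix mouse expression arrays of epidermal basal cells sorted from the tails of CD-1 mice, 2 arrays per line. All mice carried the RosaYFP reporter, in which Cre switches on a yellow fluorescent protein. In K14CREER/RosaYFP mice a tamoxifen-inducible Cre was driven by the keratin 14 promoter, active in basal keratinocytes, and 1 ug of tamoxifen was given. In InvCREER/RosaYFP mice it was driven by the involucrin promoter, usually linked to differentiating keratinocytes, and 10 ug was given, so that dose and line cannot be told apart. Titles give 3.5 days after induction and the protocol 4 days, and the ages of the mice are not in the labels. Living YFP-positive cells with high alpha6 integrin and no CD34 at the surface were sorted. The labels do not tie arrays to mice, so the spread and the p-values may be technical.

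In healthy skin most matrix proteins of this class are made by dermal fibroblasts, and keratinocytes make some of them at the basement membrane, in the follicle and after wounding. SPARC binds collagens and calcium and loosens cell contacts. Thrombospondin 1, tenascin C, periostin and the CCN proteins act largely through integrins and other surface receptors, and CYR61 and CTGF are textbook targets of the transcription factors YAP and TEAD.

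The sorted cells carried the markers of basal keratinocytes. All 10 basal markers lay above the intensity filter, a log2 value of 5.42, on every array, with list means of 12.40 and 12.30 in K14CREER and 11.52 and 11.39 in InvCREER. Krt14 was 14.14 and 14.17 on the K14CREER arrays and 13.82 and 13.85 on the InvCREER arrays. The gated integrin gene, Itga6, was 12.38 and 12.41 against 11.62 and 11.77. The involucrin gene Ivl lay below the filter by its mean, with K14CREER arrays at 4.58 and 6.23 and InvCREER arrays at 4.78 and 5.06. Cd34 was 6.07 on K14CREER array 1 and 3.59 to 3.88 on the other arrays. Of 10 suprabasal markers, 8 and 9 lay above the filter on the K14CREER arrays and 8 on each InvCREER array. The brightest were Krt10 at 13.31 to 14.11, Krt1 at 12.13 to 13.74 and Krtdap at 13.22 to 13.80. Lor was lower at 6.16 to 7.70, and Flg lay under the filter at 3.36 to 3.97. K14CREER array 1 was the highest array in Tnc, Fn1 and Ctgf, which are given without it too. In Ctgf it did not stand apart, as InvCREER array 1 was at 7.59 against 7.98, and K14CREER array 2 was lowest at 6.08.

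Start regions are shown for members that lay on opposite sides between the lines, Sparc, Tnc and Cyr61 (lower in InvCREER) and Postn (higher). RefSeq sequences of GRCm38.p6 were at hand for 4 of the 7 members. Each is the 250 bases before the transcription start, 5′ to 3′ on the strand of the gene. Capitals mark TATAAA, the letters of the TATA box at any distance from the start, and GGAATG, a motif of TEAD factors that lies here on the opposite strand. These motifs did not overlap each other. For Tnc the upstream and for Postn the downstream of 2 listed starts is shown.
Sparc, chr11:55420081-55420330, minus strand: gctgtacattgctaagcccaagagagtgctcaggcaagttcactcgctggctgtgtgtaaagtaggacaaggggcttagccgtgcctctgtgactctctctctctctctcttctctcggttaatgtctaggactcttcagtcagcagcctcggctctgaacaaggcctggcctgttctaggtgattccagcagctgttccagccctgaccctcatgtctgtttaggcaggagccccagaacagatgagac
Tnc, chr4:64047016-64047265, minus strand: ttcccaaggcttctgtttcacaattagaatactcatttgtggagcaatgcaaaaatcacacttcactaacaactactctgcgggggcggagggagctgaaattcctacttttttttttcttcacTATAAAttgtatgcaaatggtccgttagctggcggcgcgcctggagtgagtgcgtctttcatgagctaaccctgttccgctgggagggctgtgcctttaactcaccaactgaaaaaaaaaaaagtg
Cyr61, chr3:145649986-145650235, minus strand: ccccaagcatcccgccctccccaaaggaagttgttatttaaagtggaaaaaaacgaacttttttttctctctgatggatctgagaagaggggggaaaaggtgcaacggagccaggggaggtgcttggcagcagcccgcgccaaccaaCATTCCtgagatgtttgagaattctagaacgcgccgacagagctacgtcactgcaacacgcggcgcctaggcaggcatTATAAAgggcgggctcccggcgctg
Postn, chr3:54360857-54361106, plus strand: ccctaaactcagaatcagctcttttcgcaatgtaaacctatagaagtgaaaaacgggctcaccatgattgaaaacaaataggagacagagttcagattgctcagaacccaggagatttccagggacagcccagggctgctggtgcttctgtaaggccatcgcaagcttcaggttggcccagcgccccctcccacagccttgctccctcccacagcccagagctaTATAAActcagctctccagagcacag
TATAAA was found 126 bases before the start in Tnc, 25 in Cyr61 and 26 in Postn, and not in the Sparc window. Of the starts not shown, the upstream Postn start had no TATAAA in its window, and the downstream Tnc start had it 205 bases before. GGAATG was found in the Cyr61 window alone, 103 bases before the start. TGANTCA, the AP-1 motif, was in none of the 4 windows. On both strands, 12.4% of all 32851 windows of this length held TATAAA, 12.6% GGAATG and 6.75% TGANTCA. A match is a description of letters and not evidence of binding.

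Sparc had a large and closely replicated difference. Its brightest probe set read 12.19 and 12.11 (log2) for K14CREER against 9.73 and 9.85 for InvCREER. Both InvCREER arrays lay below both K14CREER arrays, by at least 2.27. The difference of the means was -2.36 (SE 0.14, n = 2 per line), a 5.15-fold lower signal in InvCREER. The second probe set gave 11.48 and 11.33 against 9.13 and 8.96, a difference of -2.36 (SE 0.17), so that both gave the same size. The remaining probe set was dim and nearly flat, at 5.81 and 5.79 against 5.59 and 5.77 (-0.12, SE 0.22). With the mean of its 3 probe sets Sparc was at -1.61 (SE 0.18).

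The decrease of Sparc was about as large without any single array. The difference of its brightest probe set lay between -2.43 and -2.30 when each array was left out in turn. It was -2.33 (SE 0.23) without K14CREER array 1. The 2 arrays of a line differed by 0.08 in K14CREER and 0.12 in InvCREER, below the median of 0.25 over all tested probe sets in either line.

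**Figure D1:**
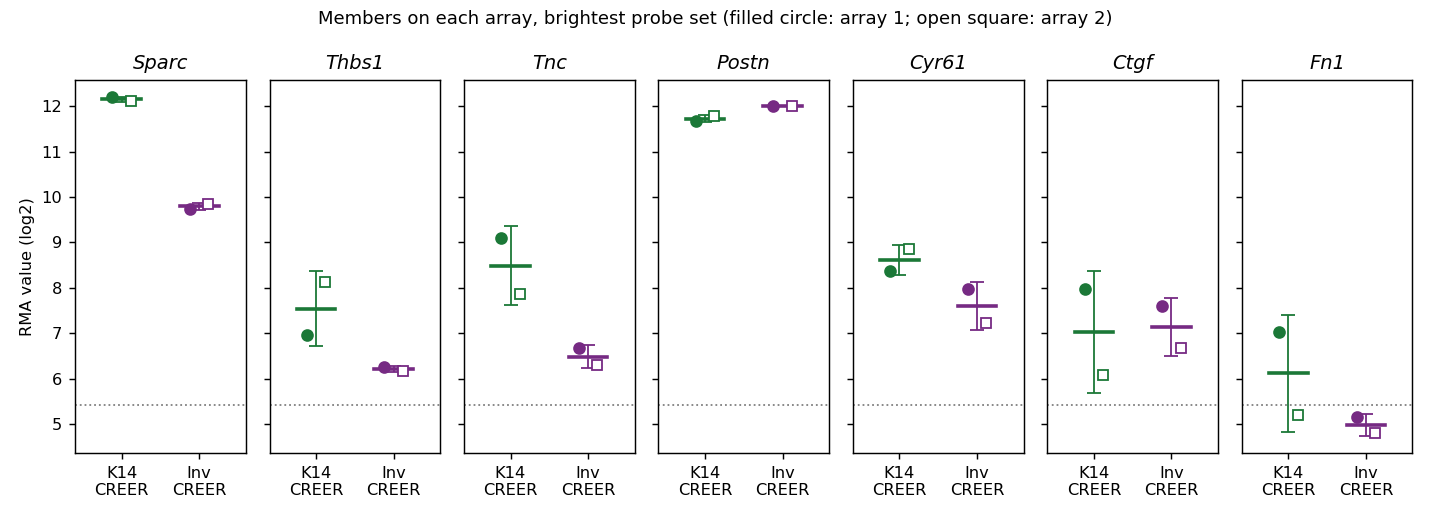
RMA values (log2) of the brightest probe set of each of the 7 genes on the 4 arrays, with line means and SD (n = 2); the dotted line is the intensity filter at 5.42. Sparc separates the lines with tight pairs, Postn lies slightly higher in InvCREER, and Thbs1, Tnc, Ctgf and Fn1 differ widely between the 2 K14CREER arrays.

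Tnc, the adhesion-modulating glycoprotein tenascin C, lay lower in InvCREER with more spread. Its values were 9.10 and 7.87 for K14CREER against 6.67 and 6.30 for InvCREER, without overlap. The difference was -2.01 (SE 0.42, n = 2 per line), 4.02-fold lower. K14CREER array 1 was the high one, and without it the difference was -1.39 (SE 0.34), against -2.62 (SE 0.34) without K14CREER array 2. The other Tnc probe set lay under the intensity filter and showed the same order, at 5.69 and 4.32 against 3.78 and 3.40.

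Fn1 had its signal on 1 array. It was 7.02 on K14CREER array 1 and 5.21 on K14CREER array 2, against 5.15 and 4.80 in InvCREER. The difference was -1.15 (SE 0.56), and -0.24 (SE 0.28) without K14CREER array 1. The gap between the K14CREER arrays, 1.81, was reached by 0.38% of tested probe sets. The other Fn1 probe set was dim on all arrays, at 3.44 to 3.95. The brighter Fn1 probe set thus lay under the filter value on 3 of the 4 arrays.

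Thbs1, which encodes thrombospondin 1, an activator of latent TGF-beta, had the opposite high array. Its values were 6.96 and 8.12 for K14CREER against 6.25 and 6.16 for InvCREER. The lines did not overlap, and the difference was -1.34 (SE 0.39), 2.53-fold lower. Without K14CREER array 2 it was -0.76 (SE 0.31), and without K14CREER array 1 it was -1.91 (SE 0.32). The dimmer Thbs1 probe set, under the filter, was 5.42 and 6.00 against 5.18 and 4.60, in the same order of lines and with K14CREER array 2 again highest.

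Postn, which encodes periostin, a fasciclin-domain protein that binds collagen and fibronectin, was the member with higher values on both InvCREER arrays. It was bright throughout, with 11.67 and 11.78 for K14CREER against 12.01 and 12.01 for InvCREER. The difference was 0.29 (SE 0.12), 1.22-fold, and stayed between 0.24 and 0.34 when any single array was left out.

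The CCN genes did not share a pattern. Cyr61, a heparin-binding integrin ligand, was measured by 4 probe sets that share 1 target and are not replicates. Its brightest probe set read 8.38 and 8.85 for K14CREER against 7.98 and 7.23 for InvCREER, a difference of -1.01 (SE 0.33). The 3 others were at -1.03 (SE 0.33), -0.88 (SE 0.27) and -0.70 (SE 0.32), all with the same sign. All 4 lay lower in InvCREER without overlap, as did 21.0% of all non-control probe sets, and their smallest gap was 0.17. InvCREER array 2 was the lowest array in each. Without it the brightest probe set was at -0.63 (SE 0.35), and without InvCREER array 1 at -1.39 (SE 0.36).

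Ctgf, a matrix-bound growth factor modulator, overlapped between the lines. Its values were 7.98 and 6.08 for K14CREER against 7.59 and 6.68 for InvCREER. Array 1 was the higher array in both lines. The difference was 0.11 (SE 0.64, 95% interval -1.43 to 1.64), an interval that spans sizeable changes in either direction. It was -0.85 without K14CREER array 2, -0.35 without InvCREER array 1, 1.06 without K14CREER array 1 and 0.56 without InvCREER array 2, so that single arrays set its sign. The gap of 1.91 between the K14CREER arrays was reached by 0.27% of tested probe sets.

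**Figure D2:**
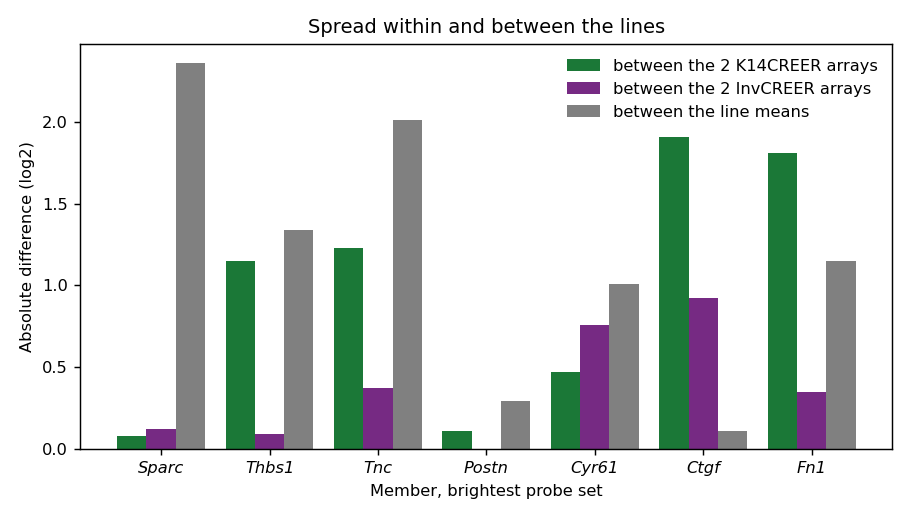
Absolute differences (log2) of the brightest probe set of each gene between the 2 K14CREER arrays, between the 2 InvCREER arrays and between the line means. The difference between the lines exceeds both within-line differences in Sparc, Thbs1, Tnc, Postn and Cyr61, and is below the K14CREER one in Ctgf (1.91) and Fn1 (1.81).

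Over the members, 13 of 15 probe sets had both InvCREER arrays below both K14CREER arrays, against 21.0% of all non-control probe sets, and 1 had both above, against 17.5%. Of the 15, 12 passed the intensity filter, and these covered all 7 genes. In the limma fit over 22519 probe sets 2 of the 12 passed the threshold of an adjusted p under 0.05, against 0.959% of all tested probe sets. Both were Sparc probe sets and both were lower, a direction in which 0.275% of tested probe sets passed. As the genes were chosen with this comparison known, nothing is read from these shares. The median difference over 1 probe set per gene was -1.15, the value of Fn1, and -0.01 over all 11270 tested genes. Fn1 was at -0.24 without K14CREER array 1, the only array on which it lay above the filter. Tnc came nearest among the rest, and passed in 6 of 14 alternative settings.

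**Figure D3:**
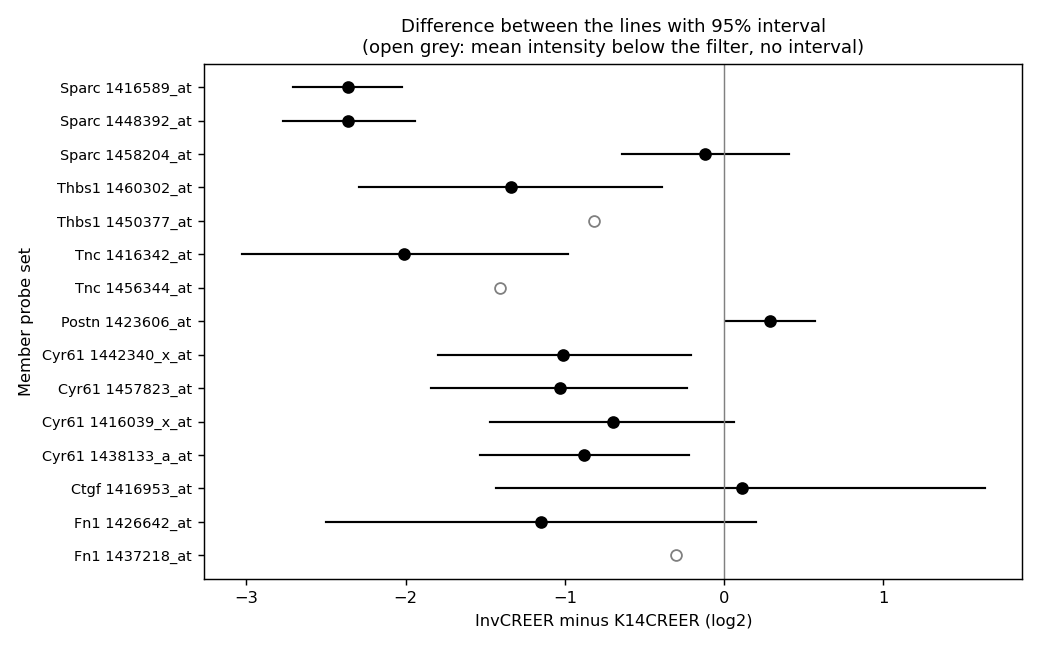
InvCREER minus K14CREER (log2) for the 15 probe sets of the 7 genes, with the 95% interval of the limma fit, not adjusted for the number of probe sets. Open grey points are the 3 probe sets under the intensity filter; 2 Sparc probe sets lie at -2.36 with the shortest intervals among the lower ones, and Ctgf has the widest.

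The profiles over the 4 arrays placed the members in different company. Likeness was the root mean square difference of log2 values centred on each gene's mean over the 4 arrays, a description without a test. Among the members the closest pair was Thbs1 and Cyr61 (0.376), followed by Tnc with Fn1 (0.476) and Sparc with Tnc (0.479). Sparc and Ctgf were the farthest apart (1.442). Among all tested genes, those nearest to Sparc were the matrix metalloproteinase gene Mmp3 (0.207), the noradrenaline transporter gene Slc6a2 (0.211), the intermediate filament gene Synm (0.216), Crip1 (0.222) and the actin-bundling gene Fscn1 (0.264). Mmp3, for example, read 8.19 and 8.55 for K14CREER against 5.68 and 6.17 for InvCREER.

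Nearest to Tnc were Angptl7 (0.161), Kcne4 (0.169), the fibulin gene Fbln7 (0.185), the surface glycoprotein gene Thy1 (0.191) and the ERK phosphatase gene Dusp6 (0.204). Nearest to Fn1 were Rgs7bp (0.091), the metalloproteinase gene Adam8 (0.146), Tead1 (0.147), the natriuretic peptide gene Nppb (0.181) and Basp1 (0.189). Tead1, which encodes a DNA-binding partner of YAP, was 9.85 on K14CREER array 1 and 8.30, 7.83 and 7.64 on the others, and its difference was -0.57 (SE 0.32) without K14CREER array 1. Nearest to Thbs1 were the neurotrophic factor gene Gdnf (0.089), Dram1 (0.125), Plscr4 (0.161), Gm15867 (0.179) and 2210408K08Rik (0.187).

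Cyr61 was nearest to the secreted Wnt modulator gene Sfrp1 (0.135), AI506816 (0.137), Flrt1 (0.141), Aff3 (0.152) and Kctd14 (0.154). Ctgf was nearest to the epiplakin gene Eppk1 (0.111), Tent5b (0.230), Trps1 (0.232), Zbed6 (0.245) and the vimentin gene Vim (0.246). Postn lay within 0.016 of its 5 nearest genes, 2510002D24Rik, Taf6l, Mettl3, Hspa1b and Slc35e2.

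Relatives of the members lay on both sides. Of 29 other matricellular and SPARC-family genes 13 passed the intensity filter, and 0 of them passed the limma threshold, against 0.373% of tested genes lower and 0.958% higher. At an unadjusted p under 0.05 in the same fit 6 were lower and 1 higher, against 8.54% of tested genes lower and 7.58% higher. Their median difference was -0.61, with 9 lower. Without overlap 7 lay below, against 21.0% of all non-control probe sets, and 2 above, against 17.5%. Fbln7, a fibulin, was at -1.96 (limma adjusted p = 0.0517), with its InvCREER values of 5.15 and 4.91 under the filter, and Thbs2, the thrombospondin 2 gene, at -1.79 (limma adjusted p = 0.0796). Thbs2 read 7.31 and 8.26 for K14CREER against 6.02 and 5.96 for InvCREER, with K14CREER array 2 highest as in Thbs1. Efemp1, a fibulin, was at -1.22 and the galectin gene Lgals1 at -1.40. Lgals1 was 9.31 on K14CREER array 1 and 6.22 to 6.91 on the other arrays, the same high array as in Tnc and Fn1. Without that array its difference was -0.06 (SE 0.39).

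Receptors of the members went both ways. Cd36, a scavenger receptor that binds thrombospondin 1 and fatty acids, rose by 3.68 (SE 0.52, limma adjusted p = 0.0416). It was the 1 of 20 tested receptor genes past the threshold, against 0.958% of tested genes higher. It read 4.93 and 4.43 for K14CREER against 9.17 and 7.56 for InvCREER, with the K14CREER values under the filter, so that its fold has no firm size. Itga2 and Itgb1, which together form a collagen receptor, were at -1.61 and -1.48 (limma adjusted p = 0.0540 and 0.0516). The InvCREER values of Itga2, 4.64 and 4.91, lay under the filter. Itgb8, an integrin chain that activates TGF-beta, was at 1.56 (limma adjusted p = 0.290). The list median was -0.26, with 13 of 20 lower. At an unadjusted p under 0.05 in the same limma fit 7 were lower and 4 higher, against 8.54% of tested genes lower and 7.58% higher.

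Genes of collagens and matrix assembly gave 0 of 15 past the limma threshold and a median of -0.31. In the same fit 4 were lower and 0 higher at an unadjusted p under 0.05, against 8.54% and 7.58% of tested genes. Dcn, the proteoglycan decorin, was at -1.87 (limma adjusted p = 0.0552), Col7a1 of the anchoring fibrils at -0.83, Col5a2 at -0.63 and the hemidesmosomal collagen gene Col17a1 at -0.60. Of 15 tested proteases and inhibitors 3 fell, against 0.373% of tested genes, with a median of -0.78. Mmp13, a collagenase, fell by 2.48 (SE 0.33, limma adjusted p = 0.0353), with InvCREER values of 4.59 and 4.21 under the filter, so that its fold has no firm size. Mmp3, stromelysin 1, which can cleave several matricellular proteins, fell by 2.44 (SE 0.28, limma adjusted p = 0.0230). Timp3, a matrix-bound inhibitor of metalloproteinases, fell by 1.49 (SE 0.21, limma adjusted p = 0.0429). The cathepsin gene Ctsl was at -1.66 (limma adjusted p = 0.0565).

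TGF-beta ligands, receptors and SMAD targets had a median of -0.53, with 15 of 17 lower and 0 past the limma threshold. In the same fit 8 were lower and 0 higher at an unadjusted p under 0.05, against 8.54% and 7.58% of tested genes. Tgfbr3 was at -1.36 (limma adjusted p = 0.0689), Ltbp4, which stores latent TGF-beta, at -1.19, Tgfb1 at -1.03 and Tgfbr2 at -1.01. Genes of YAP, TEAD and their targets, the pathway in which Cyr61 and Ctgf are commonly read, went both ways with 0 of 18 past the limma threshold and a median of -0.35. At an unadjusted p under 0.05, 6 were lower and 4 higher, against 8.54% and 7.58% of tested genes. Of the 18, 12 were lower. Without overlap 11 lay below, against 21.0% of all non-control probe sets, and 4 above, against 17.5%. The largest differences were those of Tead1 at -1.35 (limma adjusted p = 0.286) and of Gadd45b, F3 and Nuak2 at 1.34, 1.25 and 1.25 (limma adjusted p = 0.0801, 0.0730 and 0.0881). Dlc1 and Crim1 of the same list, named after their values were seen, were at -1.0 and -0.99. Of 15 SRF and MRTF genes, which respond to actin, Actn1 alone passed, against 0.373% of tested genes lower. It fell by 1.22 (SE 0.18, limma adjusted p = 0.0441), and the list median was -0.13. The tropomyosin genes Tpm1 and Tpm2 were at -0.72 and -0.68 and Cnn2 at 0.60. Of the 113 tested genes of the 7 lists 4 passed lower and 1 higher, against 0.373% and 0.958% of tested genes. As the lists were chosen with earlier results known, nothing is read from these shares. Leaving out either K14CREER array ended the calls of Cd36, Mmp3, Timp3 and Actn1, and leaving out K14CREER array 1 ended that of Mmp13. Without the mean-variance trend of the limma fit the adjusted p was 0.0693 for Cd36, 0.0570 for Mmp13, 0.0644 for Timp3 and 0.0806 for Actn1. Without the intensity filter the limma adjusted p was 0.0512 for Timp3 and 0.0537 for Actn1, and with the mean of its probe sets Actn1 was at -0.86 (limma adjusted p = 0.0606).

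**Figure D4:**
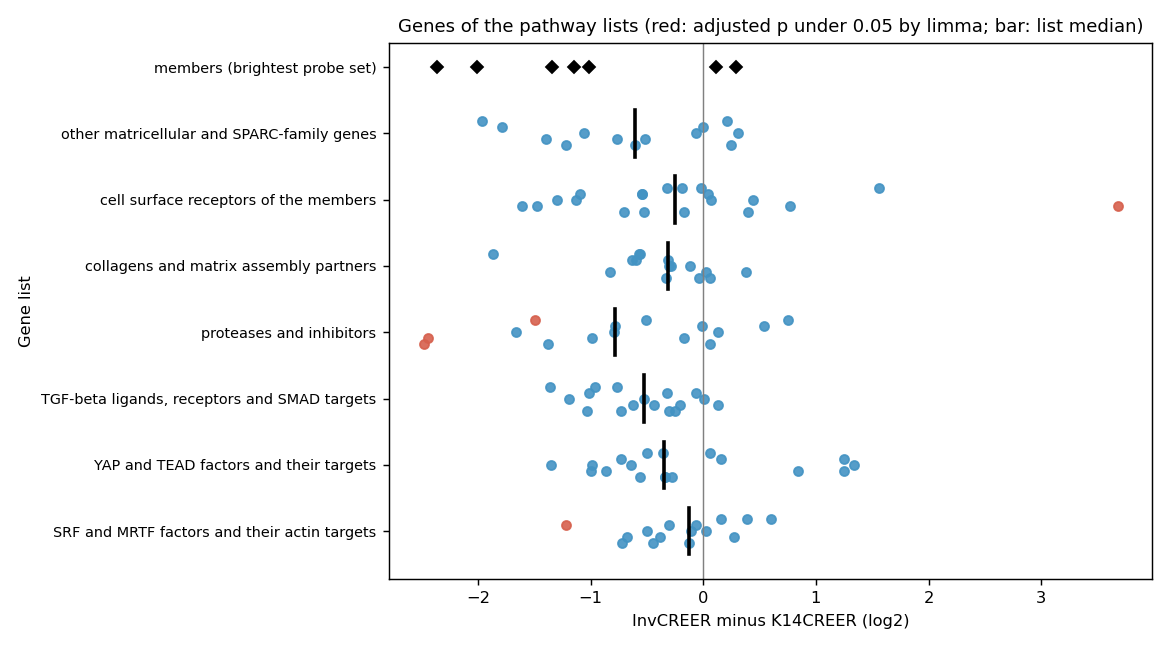
InvCREER minus K14CREER (log2) for the tested genes of the 7 pathway lists, 1 probe set per gene, with the 7 members on top as diamonds. Red points passed an adjusted p under 0.05 by limma (Cd36 higher; Mmp3, Mmp13, Timp3 and Actn1 lower), and the black bars are list medians, from -0.78 for proteases to -0.13 for SRF and MRTF genes.

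Markers of other cells that make these proteins were read beside the members. In a bulk sample fewer cells of a type and less RNA per cell cannot be told apart. Of 15 dermal fibroblast markers 14 had a named probe set, of which 7 and 5 lay above the filter on the K14CREER arrays and 8 and 6 on the InvCREER arrays. The list averaged 6.15 and 5.52 on the K14CREER arrays, and 5.46 and 5.28 on the InvCREER arrays, so that K14CREER array 1 was highest, as it was for Tnc, Fn1 and Ctgf. Dcn was 9.50 and 9.07 against 7.09 and 7.75, and Thy1 was 9.18 and 7.80 against 6.64 and 6.71. Of the fibroblast collagen genes, named after their values were seen, Col1a1, Col3a1 and Col6a3 lay under the filter by their means and Col1a2, Col5a1 and Col6a1 above it. Col1a1 was 4.04 to 5.03 on all arrays, and Col3a1 was 6.12 on K14CREER array 1 and 3.73 to 4.43 on the others. Col1a2 was 6.70 and 5.17 against 5.80 and 5.41, and Col6a1 was 7.21 and 6.50 against 6.53 and 6.07. Col5a1 was 6.25 and 6.17 against 5.88 and 5.97, and Col6a3 was 5.31 and 4.92 against 5.45 and 5.17. Vim, Pdgfrb and Dpt were likewise named after their values were seen. Vim was 7.63 and 6.35 against 7.45 and 6.39. Pdgfrb (5.26 and 5.30 against 5.45 and 5.54) and Dpt (3.91 and 3.93 against 4.02 and 4.03) were higher in InvCREER, under the filter by their means. The part of fibroblast RNA in the results for Sparc, Tnc, Fn1 and Ctgf was not tested.

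Endothelial markers had means of 5.00 and 4.85 in K14CREER and 4.85 and 4.97 in InvCREER, with Egfl7 at 7.03 to 7.32 and Kdr at 5.94 to 6.18. Smooth muscle and pericyte markers were at 5.82 and 5.75 against 5.57 and 5.51. Among them Cspg4 was 8.88 and 8.91 against 7.61 and 7.56, and Des was 5.95 to 6.20. Melanocyte markers were at 6.38 and 5.97 against 5.92 and 6.37, with Pmel at 6.95 to 7.53 and Dct at 6.73 to 7.53. Schwann cell markers were at 6.82 and 6.64 against 6.51 and 6.47, with Mbp at 8.37 to 8.75 and Sox10 at 6.24 to 6.76. Langerhans and myeloid markers were at 5.33 and 5.00 against 6.92 and 5.75, led by H2-Aa (6.44 and 5.68 against 9.43 and 7.41) and H2-Ab1. InvCREER array 1 was the highest array in H2-Aa, as it was in Cd36 (4.93 and 4.43 against 9.17 and 7.56). The part of such cells in the Cd36 result was not tested.

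Follicle markers had means of 6.33 and 5.91 in K14CREER and 6.01 and 5.78 in InvCREER, with Nfatc1 at 7.58 to 8.29. Lgr6, expressed by stem cells of the upper follicle, fell from 8.47 and 8.34 to 6.67 and 6.55 (limma adjusted p = 0.0292). It was the only tested follicle marker past the threshold, against 0.373% of tested genes lower. Sox9 (7.35 and 6.70 against 8.22 and 7.39) and Tbx1 (5.92 and 5.74 against 6.30 and 5.95), named after their values were seen, were higher without overlap. The 4 tested follicle markers thus lay on both sides. Basal and suprabasal keratinocyte markers lay on opposite sides beside the members. Of 10 basal markers Krt15 and Lamb3 fell, against 0.373% of tested genes. All 10 lay lower without overlap, against 21.0% of all non-control probe sets, a wider set that includes dim ones. Their median was -0.65, and Krt5 was at 13.84 and 13.80 against 13.52 and 13.21. Of 8 tested suprabasal markers 6 rose, against 0.958% of tested genes, namely Krt1, Krt10, Sbsn, Dsg1a, Dsg1b and Grhl3, with a list median of 1.29. Leaving out either K14CREER array ended the calls of Lgr6, Dsg1a and Dsg1b, and leaving out K14CREER array 1 those of Krt15, Lamb3 and Krt10. Without the mean-variance trend the limma adjusted p was 0.0761 for Krt15, 0.0757 for Lamb3, 0.0932 for Krt1, 0.189 for Krt10 and 0.0936 for Dsg1a. For Dsg1a it was also 0.0563 without the filter and 0.0516 with robust hyperparameters. The part of these shifts in the values of Sparc and the other members was not tested.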

How the data were processed

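Each array received 100 ng of amplified total RNA, per the labels' protocols. The submitters' processing notes name RMA and Affymetrix Expression Console 1.1. The authors deposited log2 values, with array medians of 5.40 to 5.44. RMA brings arrays to similar distributions, which hides changes in RNA content per cell, and the number of arrays limits the precision.

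Of 45101 probe sets 64 controls were set aside, and 22519 with a mean at or above the median (5.42) were tested. Names came from the platform annotation, updated by Entrez number through a RefSeq table of GRCm38.p6. Of 45037 probe sets, 34945 had 1 symbol, 932 several and 9160 none here. A gene was represented by its brightest tested probe set.

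The lines were compared with limma 3.58.1 in R 4.3.3 (lmFit, eBayes with a mean-variance trend, no block), 2-sided, with Benjamini-Hochberg adjustment over all tested probe sets. With 2 arrays per line the smallest p of an exact 2-sided permutation test is 0.333. SE and intervals are those of the fit. Fits that drop an array assume that the single array remaining in that line varies as much as the other line's pair does. The members, the 7 pathway and 9 marker lists were chosen with earlier results of these data known. Named genes were all members, all list genes that passed, up to 4 genes per pathway list by size, 2 per marker list by level, and the 5 nearest genes per member. Alternatives changed the intensity filter, the scaling, the variance model or array weights, added a replicate block, left out single arrays, or changed the probe sets, the unit of testing or the threshold. Figures were drawn with matplotlib 3.10.9.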

Additional observations from a re-analysis of the deposited data

How the results depend on the processing

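The directions and calls of both bright Sparc probe sets were the same in all 15 and 13 alternatives that could be run for them. The number of member probe sets past the threshold was 2 or 3 throughout. Ctgf changed sign without K14CREER array 2 (-0.85) and without InvCREER array 1 (-0.35), and its values without each array ran from -0.85 to 1.06. The cause was not tested.

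The number of probe sets past the threshold, 216, was 405 with the stricter filter, 122 without the variance trend, 551 with 1 probe set per gene, 450 with the mean of probe sets per gene and 692 at an adjusted p under 0.10. It ran from 82 (without K14CREER array 1) to 981 (without InvCREER array 2), with 143 without K14CREER array 2 and 499 without InvCREER array 1. The 14 list genes past it became 28, 5, 40 and 34 under the first 4 of these settings, and 3 to 40 without single arrays. The causes were not tested.

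The replicate numbers of the titles are shared by the lines, but nothing says that they pair the arrays. Same-numbered arrays deviated together (r = 0.380 across 22519 probe sets, which are not independent). With the replicate number as a block 1390 probe sets and 51 list genes passed. Of the members Tnc passed too (-2.01, SE 0.25). Of the 35 nearest genes 30 were also nearest by the mean absolute difference. Signal limits what can be said of Fn1 and of the dimmer Thbs1, Tnc and Fn1 probe sets, which lay near or under the filter.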
